A study of Homo sapiens with 12 samples.

Results

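Polyamines are small, positively charged molecules that growing cells make from ornithine and S-adenosylmethionine. ODC1 turns ornithine into putrescine, AMD1 decarboxylates S-adenosylmethionine to supply the aminopropyl groups, SRM and SMS add those groups to make spermidine and spermine, and SAT1 and SMOX run the reverse direction by acetylation and oxidation. Antizymes (OAZ1 and OAZ2), which are themselves made in response to polyamines, bring ODC to the proteasome, AZIN1 binds the antizymes, and ARG2 releases ornithine from arginine in mitochondria. Intestinal epithelium and colorectal tumours are known for high ODC activity, and part of the control of ODC1, AMD1 and SAT1 acts on translation or protein turnover, which RNA levels do not show.

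The 10 genes described here are AMD1, ODC1, SRM, SMS, SAT1, SMOX, OAZ1, OAZ2, AZIN1 and ARG2, taken by name out of 54261 gene rows in the deposited table. All 10 passed the filter on low counts, together with 17572 genes in all. AMD1 was selected on its lower level in DLD1 cells with lactate, so every gene's lactate effect in DLD1 is given as a description. The data are RNA-seq read counts from 12 libraries of 2 human colorectal cancer cell lines. The groups are DLD1 treated with lactate, DLD1 left without lactate (control), SW480 treated with lactate and SW480 left without lactate, with 3 biological replicates each per the labels. The labels do not state the dose, form or duration of the lactate treatment, and they name no other treatment or genetic change.

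Libraries held 12302311 to 22662063 counts. Each library was compared with the mean of the other 2 libraries of its group. DLD1 controls 2 and 3 stood apart the most: their genes deviated from that mean along the GC content of the transcript, in opposite directions. Each of these controls is part of the other's reference, so the opposite signs are partly built in and do not show 2 independent deviations. Spearman's rho was -0.791 and 0.822 across 12035 genes. Other libraries deviated along GC content too. In SW480 lactate 1, 2 and 3, rho was 0.496, 0.351 and -0.616. In DLD1 lactate 1, 2 and 3 it was 0.168, -0.508 and 0.463. It was 0.292 in DLD1 control 1 and between -0.099 and 0.108 in the SW480 controls. The lactate effects of the 10 genes in DLD1 are given with and without DLD1 controls 2 and 3. Of the colorectal epithelium markers, EPCAM averaged 671 ± 14.6 CPM (counts scaled to a common library total) in DLD1 lactate, 701 ± 13.8 in DLD1 control, 0.609 ± 0.22 in SW480 lactate and 0.964 ± 0.184 in SW480 control (SD, n = 3 each). CDH1 was likewise below 2 CPM in each SW480 library, CDX2 and VIL1 were below 1 CPM there and KRT20 was at 0. These defining markers were thus absent or nearly so from the libraries labelled SW480. The summed list of 1260 to 2210 CPM in SW480 came mainly from KRT8 and KRT18. KRT20 was below 1 CPM in each DLD1 library as well, so it does not set the lines apart. The leukocyte list summed to 85.8 to 104 CPM in SW480 lactate and 30.8 to 50.3 CPM in SW480 control, nearly all of it CD68, while the leukocyte gene PTPRC averaged 0.157 CPM in SW480 lactate and 0.0793 CPM in SW480 control. The fibroblast list summed to 176 to 182 CPM in SW480 lactate and 158 to 177 CPM in SW480 control. Nearly all of it was COL3A1, lower with lactate, and COL1A1, higher with lactate, while COL1A2 and PDGFRB were low. In DLD1 that list summed to 9.84 to 11.7 CPM with lactate and 8.31 to 10.7 CPM in the controls. Mitochondrially encoded transcripts took 3.60% ± 0.161 of counts in SW480 lactate and 4.93% ± 0.240 in SW480 control, against 5.05% ± 0.069 in DLD1 lactate and 5.06% ± 0.176 in DLD1 control (SD, n = 3 each). The part of these shifts in the results below was not tested.

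The 250 bases upstream of the start are shown for AMD1, SMS, SAT1 and ARG2, the 4 genes that passed the test in SW480, and for SRM, whose level came to follow that of AMD1 once the GC trend was taken out. They are from RefSeq on GRCh38.p14, 5′ to 3′ on the gene's strand, at chr6:110874534-110874783 (plus strand, AMD1), chr1:11060019-11060268 (minus, SRM), chrX:21940459-21940708 (plus, SMS), chrX:23782923-23783172 (plus, SAT1) and chr14:67619670-67619919 (plus, ARG2). Capitals mark CACGTG, the E-box core, and TGACGTCA, the full cyclic AMP response element, each of which reads the same on both strands.
AMD1: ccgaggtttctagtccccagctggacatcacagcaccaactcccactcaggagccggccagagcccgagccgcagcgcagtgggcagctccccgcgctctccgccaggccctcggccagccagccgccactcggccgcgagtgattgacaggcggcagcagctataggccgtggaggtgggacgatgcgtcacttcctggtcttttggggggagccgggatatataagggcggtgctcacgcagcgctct
SRM: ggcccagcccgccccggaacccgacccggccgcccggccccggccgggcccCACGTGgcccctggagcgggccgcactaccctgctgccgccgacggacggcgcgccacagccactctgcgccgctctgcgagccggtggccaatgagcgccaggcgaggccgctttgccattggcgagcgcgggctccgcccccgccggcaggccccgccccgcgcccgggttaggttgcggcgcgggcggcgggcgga
SMS: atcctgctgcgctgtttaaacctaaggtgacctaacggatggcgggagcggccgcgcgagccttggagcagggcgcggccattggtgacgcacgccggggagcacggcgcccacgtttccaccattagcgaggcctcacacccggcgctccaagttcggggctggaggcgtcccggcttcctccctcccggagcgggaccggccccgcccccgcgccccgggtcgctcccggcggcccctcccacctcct
SAT1: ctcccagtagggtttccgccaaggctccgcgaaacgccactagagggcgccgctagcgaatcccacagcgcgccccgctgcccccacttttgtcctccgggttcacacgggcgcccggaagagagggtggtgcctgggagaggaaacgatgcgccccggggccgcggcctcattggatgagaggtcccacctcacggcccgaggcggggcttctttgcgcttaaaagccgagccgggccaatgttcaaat
ARG2: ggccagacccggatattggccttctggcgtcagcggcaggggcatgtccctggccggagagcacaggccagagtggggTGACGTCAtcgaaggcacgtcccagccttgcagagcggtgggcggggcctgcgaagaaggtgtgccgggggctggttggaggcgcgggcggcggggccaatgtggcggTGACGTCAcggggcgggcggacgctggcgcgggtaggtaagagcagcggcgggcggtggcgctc

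CACGTG stood once in the SRM window, 199 bases before the start, and in 6.34% of 35116 such windows of all genes. TGACGTCA stood at 2 places in the ARG2 window, 172 and 64 bases before the start, and in 1.65% of all windows. CCAAT, searched on both strands and not capitalised, was in the windows of SRM, SMS, SAT1, OAZ1 and ARG2 and in 32% of all windows. None of these 3 motifs was in the AMD1 or ODC1 window, which says only that these letters are not in these 250 bases. AMD1 has 3 such windows and ODC1 has 2, and only the window nearest the start of 1 chosen transcript was searched. SMOX and AZIN1 have no window in the table used.

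Levels differed widely among the 10 genes. Per kilobase of transcript, SAT1 and OAZ1 were the highest in each group: SAT1 reached 423 CPM per kb in DLD1 lactate, 329 in DLD1 control, 984 in SW480 lactate and 571 in SW480 control. OAZ1 stood at 442 CPM per kb in DLD1 lactate, 409 in DLD1 control, 280 in SW480 lactate and 301 in SW480 control. ODC1 was at 87.6 CPM per kb in DLD1 lactate, 109 in DLD1 control, 57.5 in SW480 lactate and 74.1 in SW480 control. Below it, AMD1 was at 39.6 CPM per kb in DLD1 lactate, 61.8 in DLD1 control, 37.3 in SW480 lactate and 52.0 in SW480 control. ARG2 was low throughout, at 5.93 CPM per kb in DLD1 lactate, 8.14 in DLD1 control, 8.28 in SW480 lactate and 4.45 in SW480 control, which amounts to 117 to 367 reads per library. SMOX was low in DLD1, at 5.79 CPM per kb in DLD1 lactate and 4.63 in DLD1 control, against 122 in SW480 lactate and 118 in SW480 control, and its smallest count in a library was 107 reads.

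**Figure D1:**
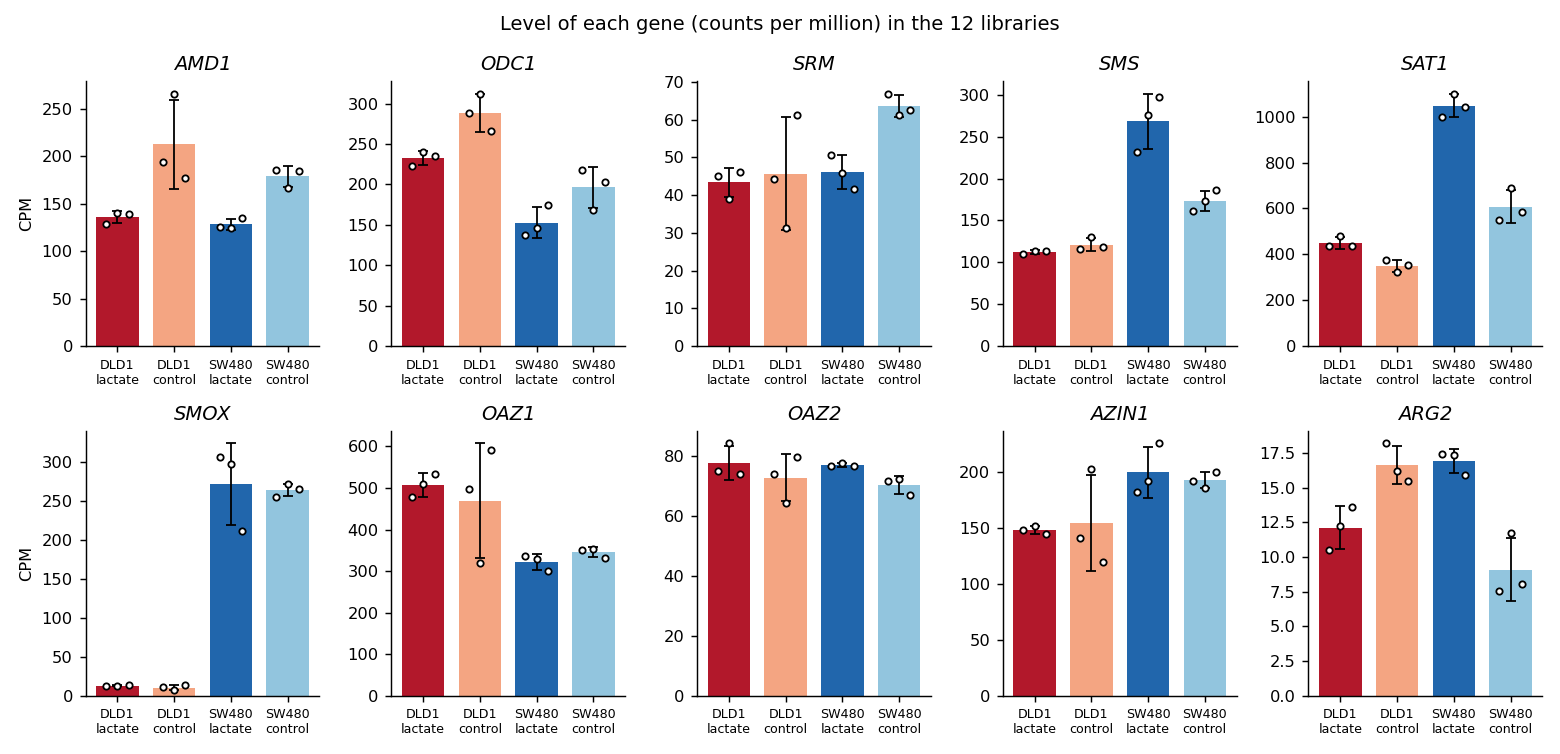
Level of each of the 10 genes in CPM (y axis, from 0), with bars for the mean, error bars for the SD of 3 libraries and open circles for the libraries, in DLD1 lactate, DLD1 control, SW480 lactate and SW480 control from left to right. AMD1 was lower in every lactate library than in any control library of the same line, and the DLD1 controls of SRM, OAZ1 and AZIN1 were spread widely.

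In SW480, AMD1 fell with lactate while SMS, SAT1 and ARG2 rose. Of the 10 genes, 3 rose and 1 fell at an adjusted p under 0.05, where 6.83% of all genes tested rose and 5.59% fell. Their median log2 fold change was 0.07, against -0.01 over all genes tested. The lactate and control libraries did not overlap for 6 genes, 4 higher and 2 lower, a separation seen in 40.8% of all genes tested. With the trend along GC content and transcript length taken out of each library, 4 of the 10 were called higher (SMS, SAT1, ARG2 and OAZ2) and 3 lower (AMD1, ODC1 and SRM), where 13.8% of all genes tested were called higher and 14.7% lower. CPM are on library totals, whereas fold changes come from the model fitted across all genes with its own scaling (TMM). In such bulk libraries, fewer cells expressing a gene and less RNA per cell cannot be told apart.

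AMD1, the enzyme that commits S-adenosylmethionine to polyamine synthesis, had 125, 124 and 135 CPM in the SW480 lactate libraries, against 186, 166 and 184 CPM in the SW480 controls. Every lactate library was below every control. The level fell 1.37-fold, a log2 fold change of -0.46 ± 0.13 (SE, n = 3 each, adjusted p = 0.0346). The call was lost on leaving out any one of SW480 lactate 1, 2 and 3, SW480 controls 1 and 3, or DLD1 lactate 3, with adjusted p between 0.0505 and 0.138 and log2 fold changes between -0.51 and -0.43 over the 12 such fits. It passed in the 6 other fits of that kind and in 11 of 11 other refits. Its pseudogenes have rows of their own, of which AMD1P3 reached at most 0.787 CPM.

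ODC1, the rate-limiting enzyme of the pathway, had 137, 146 and 174 CPM in SW480 lactate, against 218, 168 and 203 CPM in SW480 control. One lactate library lay above the lowest control. Its log2 fold change of -0.34 ± 0.11 did not pass (adjusted p = 0.0634). It passed with the GC and length trend removed (-0.34, adjusted p = 0.0340), with DESeq2 (adjusted p = 0.0487) and with SW480 fitted alone (adjusted p = 0.0159). SRM, spermidine synthase, had 50.7, 45.9 and 41.6 CPM in SW480 lactate, against 66.9, 61.3 and 62.6 CPM in SW480 control. The groups did not overlap, yet the log2 fold change of -0.44 ± 0.18 did not pass in the fit over both lines (adjusted p = 0.122). A change of the same size passed without DLD1 controls 2 and 3 (-0.44 ± 0.09, adjusted p = 0.00123), without either one of them (adjusted p 0.00696 and 0.0262), with SW480 fitted alone (adjusted p = 0.00155) and with the trend along GC and length removed (-0.43 ± 0.07, adjusted p = 1.38e-04). It also passed with no filter (adjusted p = 0.0236) and with the replicate block (adjusted p = 0.0358), which keep those controls.

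SMS, spermine synthase, moved the other way, with 232, 276 and 297 CPM in SW480 lactate, against 161, 173 and 186 CPM in SW480 control. It rose 1.57-fold, a log2 fold change of 0.65 ± 0.10 (adjusted p = 0.00117), with no overlap between the groups. SAT1, the acetyltransferase that starts polyamine breakdown and export, had 999.6, 1101 and 1043 CPM in SW480 lactate, against 550.2, 690.0 and 584 CPM in SW480 control. Its rise of 1.75-fold, or 0.81 ± 0.10 on the log2 scale, had the smallest adjusted p of the 10 genes (3.28e-04). ARG2, the mitochondrial arginase, had 17.5, 17.4 and 15.9 CPM in SW480 lactate, against 7.53, 11.7 and 8.04 CPM in SW480 control. ARG2 rose 1.91-fold, or 0.93 ± 0.17 on the log2 scale (adjusted p = 0.00304). The calls of SMS, SAT1 and ARG2 passed in each of the 12 fits that left out 1 library and in 11 of 11 other refits.

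The oxidase and the regulators of ODC protein were not called in SW480. SMOX, spermine oxidase, had 306, 298 and 211 CPM in SW480 lactate, against 256, 272 and 266 CPM in SW480 control, and the lactate libraries spanned the control range (0.07 ± 0.17, 95% interval -0.26 to 0.39, adjusted p = 0.840). OAZ1 averaged 322 ± 18.9 CPM in SW480 lactate and 345 ± 11.8 CPM in SW480 control (log2 fold change -0.08, 95% interval -0.39 to 0.24, with a sign that turned to 0.01 once the GC and length trend was removed). OAZ2 averaged 76.9 ± 0.605 CPM in SW480 lactate and 70.2 ± 3.00 CPM in SW480 control, without overlap. Its log2 fold change of 0.16 ± 0.10 did not pass (adjusted p = 0.338), and passed at 0.19 ± 0.06 with the trend removed (adjusted p = 0.0253). AZIN1 averaged 200.4 ± 22.8 CPM in SW480 lactate and 193 ± 7.22 CPM in SW480 control (0.08, 95% interval -0.22 to 0.37). Its antisense gene AZIN1-AS1 reached at most 2.64 CPM, and whether counting used strand is not stated in the sources.

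**Figure D2:**
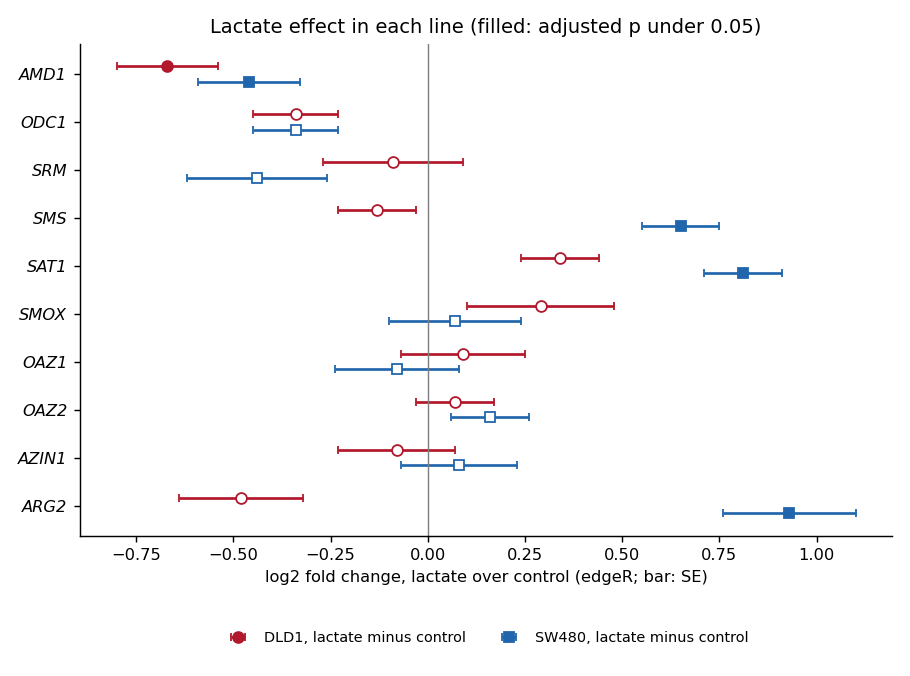
Log2 fold change of lactate over control (x axis) for each gene (y axis) in DLD1 (circles) and in SW480 (squares), with bars for 1 SE and filled symbols for an adjusted p under 0.05. In SW480, AMD1 was at -0.46 while SMS, SAT1 and ARG2 were at 0.65, 0.81 and 0.93, and the filled AMD1 circle of DLD1 is the value on which that gene was selected.

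Beyond the 10 genes, 47 genes of polyamine, arginine, methionine and hypusine metabolism and of polyamine and arginine transport were listed, of which 39 passed the filter on low counts. In SW480, 2 of the 39 rose with lactate and 2 fell, beside 6.83% higher and 5.59% lower of all genes tested, so the called share was close to that of genes in general. At an unadjusted p under 0.05 (edgeR), 5 were higher and 11 lower, where 4801 of all 17572 genes tested were under it in either direction. The lactate and control libraries did not overlap for 8 genes higher and 15 lower, a separation seen in 40.8% of all genes tested. The list's median log2 fold change was -0.05, against -0.01 over all genes tested. MAT2A, which makes the S-adenosylmethionine that AMD1 consumes, had 2104, 2254 and 1919 CPM in SW480 lactate, against 1264, 1558 and 1322 CPM in SW480 control. It rose by 0.62 ± 0.13 on the log2 scale (adjusted p = 0.00689), and without SW480 control 1 its adjusted p was 0.0528. CPS1, carbamoyl phosphate synthetase of the urea cycle, had 822, 855 and 853 CPM in SW480 lactate, against 1348, 1249 and 1352 CPM in SW480 control, and fell by 0.62 ± 0.09 on the log2 scale (adjusted p = 9.60e-04). NAGS, which makes the activator of CPS1, moved the opposite way at a far lower level: 4.37, 4.29 and 3.49 CPM in SW480 lactate, against 1.80, 2.52 and 2.08 CPM in SW480 control (0.96 ± 0.25, adjusted p = 0.0216). Omitting SW480 lactate 1 or 2, or SW480 control 1 or 3, ended the NAGS call (adjusted p 0.0535 to 0.119). SLC18B1, a vesicular polyamine transporter, fell by 0.37 ± 0.11 (25.7 ± 1.98 CPM in SW480 lactate, 33.6 ± 3.27 CPM in SW480 control, adjusted p = 0.0439), a call that passed in 2 of the 12 fits leaving out 1 library.

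With the GC and length trend removed, 4 of the 39 genes rose and 12 fell in SW480, where 13.8% of all genes tested were called higher and 14.7% lower. Besides the 4 genes above, those named here were picked after their values were seen. Lower were ASS1 (-0.44 ± 0.09), OAT, which interconverts ornithine and a proline precursor (-0.23 ± 0.06), the proline synthesis genes PYCR1 (-0.41 ± 0.06) and ALDH18A1 (-0.22 ± 0.06), AHCY of the methionine cycle (-0.26 ± 0.06) and EIF5A (-0.31 ± 0.07). Higher were ASL, argininosuccinate lyase (0.39 ± 0.09), and DHPS, which starts hypusine synthesis (0.37 ± 0.07).

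On the counts as deposited, 5 close relatives and partners of the 10 genes were not called in SW480. SAT2 differed by 0.06 (95% interval -0.15 to 0.27), PAOX, the oxidase of acetylated polyamines, by 0.04 (-0.62 to 0.70) and AZIN2 by 0.22 (-0.27 to 0.71). OAZ3, an antizyme known from testis, differed by -0.52 (-1.09 to 0.05) at 1.38 ± 0.162 CPM in SW480 lactate and 2.02 ± 0.150 CPM in SW480 control. EIF5A, whose hypusine residue is made from spermidine, averaged 519 ± 24.7 CPM in SW480 lactate and 666 ± 48.7 CPM in SW480 control (-0.33 ± 0.13, adjusted p = 0.117). ARG1, the hepatic arginase, had at most 2 reads in a library and did not pass the filter.

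In DLD1, AMD1 had 129, 141 and 139 CPM in the lactate libraries, against 194, 266 and 177 CPM in the controls. This is the difference by which the gene was chosen: -0.67 ± 0.13 on the log2 scale with an adjusted p of 0.0435, just inside the threshold of 0.05, while the next smallest of the 10, that of SAT1, was 0.150. AMD1 stayed under the threshold in 2 of the 12 fits that left out 1 library, those without DLD1 control 2 or 3, and in 10 of 11 other refits. Without any other single library of either line its adjusted p was between 0.0615 and 0.273, and with DLD1 fitted alone it was 0.383 (-0.69 ± 0.17). In DLD1, 3253 of all 17572 genes tested had an unadjusted p under 0.05 (edgeR) in either direction, and DESeq2 called 339 higher. Of the 10 genes edgeR called 0 higher (1 at an unadjusted p under 0.05, and 1 by DESeq2) and 1, AMD1, lower, where 0.336% of all genes tested were called higher and 0.0455% lower. The highest control, DLD1 control 2, is one of the libraries that stood apart. Without it the AMD1 difference was -0.46 ± 0.08, without DLD1 control 3 it was -0.78 ± 0.11, without both it was -0.54 ± 0.10 on 1 remaining control, and with the GC and length trend removed it was -0.39 ± 0.06. The trend-removed value in SW480 was -0.43 ± 0.06. The DLD1-minus-SW480 difference of the AMD1 effects, -0.21 with a 95% interval of -0.57 to 0.15, was 0.04 with the trend removed.

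The other 9 genes are given for DLD1 in the same way. ODC1 had 223, 239.7 and 235 CPM in DLD1 lactate, against 288, 312 and 266 CPM in DLD1 control, a log2 difference of -0.34 ± 0.11 without overlap. SAT1 had 435, 479.8 and 436 CPM in DLD1 lactate, against 376, 321 and 353 CPM in DLD1 control, a difference of 0.34 ± 0.10 that became 0.49 ± 0.08 with the trend removed. ARG2 had 10.5, 12.3 and 13.6 CPM in DLD1 lactate, against 18.2, 16.2 and 15.5 CPM in DLD1 control, or -0.48 ± 0.16. The ARG2 libraries did not overlap in either line, with lactate below control in DLD1 and above it in SW480. SMS had 110.2, 114 and 114 CPM in DLD1 lactate, against 115, 130.2 and 118 CPM in DLD1 control, a difference of -0.13 ± 0.10. Without DLD1 control 2 the differences were -0.27 for ODC1, 0.29 for SAT1, -0.49 for ARG2 and -0.07 for SMS. Without DLD1 control 3 they were -0.40, 0.34, -0.53 and -0.15 in that order of genes, and the adjusted p of ODC1, SAT1 and ARG2 was then 0.0228, 0.0459 and 0.0394. That fit called far more genes in general: 1881 higher and 1910 lower of 18063 tested, against 59 and 8 of 17572 in the main fit. Lactate and control did not overlap for 5 genes, 1 higher and 4 lower, against 18.8% of all genes tested.

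For SRM, OAZ1, AZIN1 and SMOX, the DLD1 controls were spread more widely than the DLD1 lactate libraries. SRM, at 63.7% GC, had 45.1, 39.1 and 46.1 CPM in DLD1 lactate, against 44.3, 31.4 and 61.3 CPM in DLD1 control. Its difference was -0.09 ± 0.18 as deposited, -0.30 without DLD1 control 2, 0.16 without DLD1 control 3, and -0.35 ± 0.07 with the trend removed. AZIN1, at 42.3% GC, had 148, 152 and 145 CPM in DLD1 lactate, against 142, 203 and 119.7 CPM in DLD1 control. Its difference of -0.08 turned to 0.17 without DLD1 control 2 and to 0.07 with the trend removed. OAZ1 had 478, 509 and 534 CPM in DLD1 lactate, against 498, 318 and 591 CPM in DLD1 control, and its difference of 0.09 turned to -0.12 without DLD1 control 2. SMOX averaged 12.9 ± 0.676 CPM in DLD1 lactate and 10.3 ± 3.02 CPM in DLD1 control (0.29 ± 0.19), and OAZ2 77.6 ± 5.67 CPM in DLD1 lactate and 72.7 ± 7.83 CPM in DLD1 control (0.07 ± 0.10). The SMOX difference was 0.10 without DLD1 control 2, 0.49 without DLD1 control 3 and 0.05 with the trend removed. That of OAZ2 was -0.0030 without DLD1 control 2 and 0.14 without DLD1 control 3, and those of OAZ1 and AZIN1 without DLD1 control 3 were 0.28 and -0.24.

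Across the 10 genes, DLD1 control 3 minus DLD1 control 2 was -0.62 on the log2 CPM scale for AMD1 and -0.80 for AZIN1, the genes of lowest GC content at 38.0% and 42.3%. It was 0.86 for OAZ1, 0.84 for SMOX and 0.93 for SRM, whose GC content was 54.0%, 61.1% and 63.7%. The other 5 genes lay between these in GC content, around the median of 48.8% over tested genes with an annotated transcript, and did not follow the order of GC closely. The value was 0.10 for SAT1 at 43.8%, -0.17 for SMS at 46.5%, -0.10 for ARG2 at 47.1%, -0.27 for ODC1 at 51.2% and 0.28 for OAZ2 at 52.8%.

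**Figure D3:**
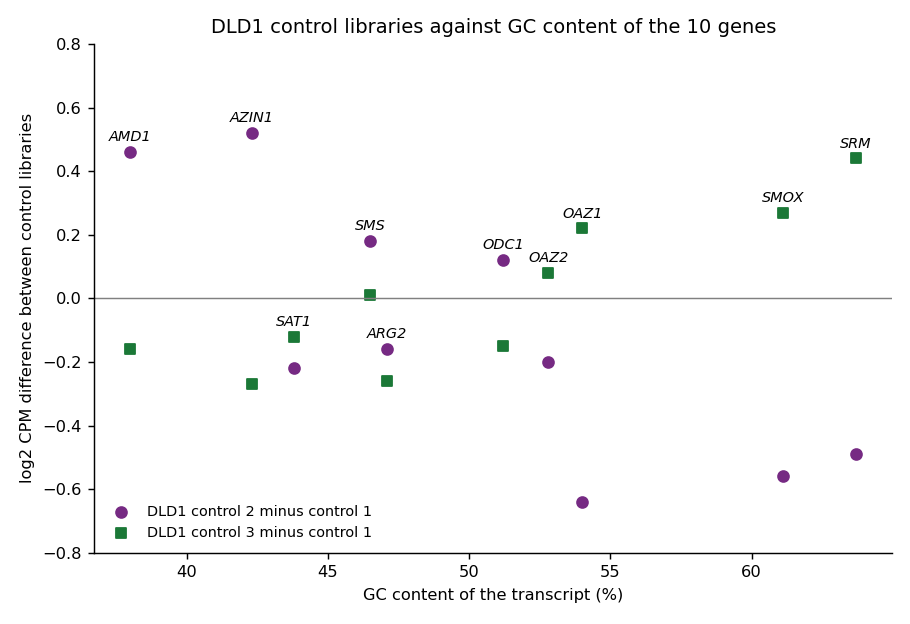
Difference in log2 CPM of DLD1 control 2 (circles) and DLD1 control 3 (squares) from DLD1 control 1 (y axis) against the GC content of the transcript in percent (x axis) for the 10 genes. AMD1 and AZIN1 are higher in control 2 and lower in control 3, while OAZ1, SMOX and SRM are lower in control 2 and higher in control 3.

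**Figure D4:**
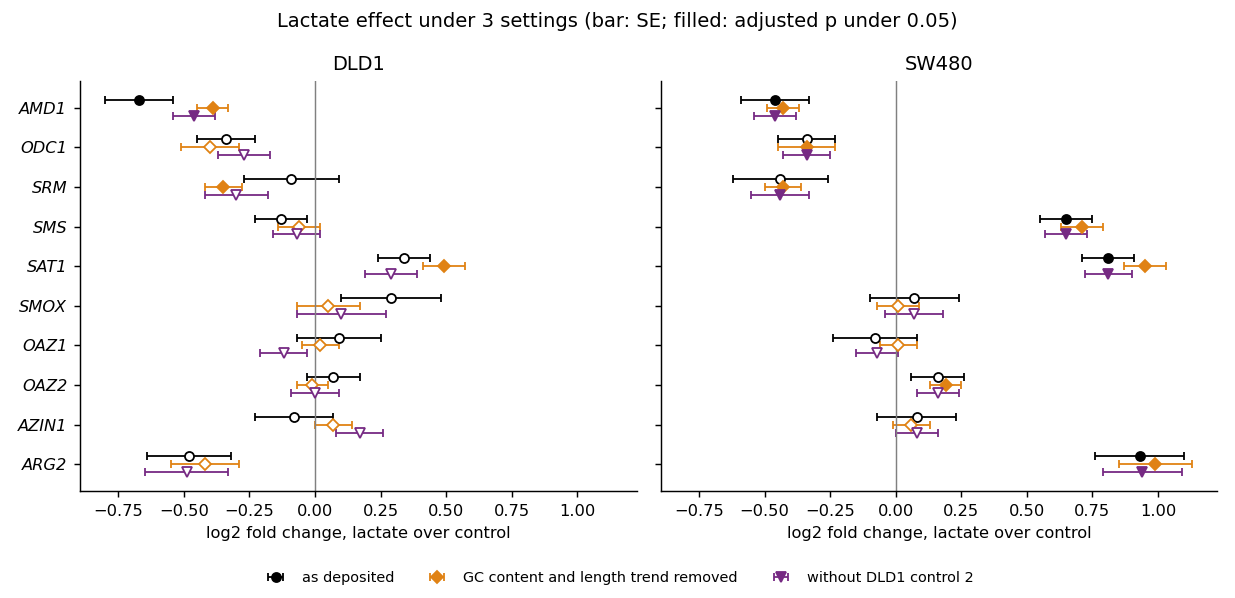
Log2 fold change of lactate over control (x axis, with bars for 1 SE) for each gene in DLD1 (left) and SW480 (right), on the counts as deposited, with the GC and length trend removed, and without DLD1 control 2; filled symbols have an adjusted p under 0.05. AMD1 in DLD1 shifts from -0.67 to -0.39 and SRM from -0.09 to -0.35 when the trend is removed, while AMD1 in SW480 shifts from -0.46 to -0.43 and OAZ1 in SW480 from -0.08 to 0.01.

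The lactate effects of the 2 lines were then compared directly, in the same fit. SMS and ARG2 differed, both with a lower effect in DLD1, where 0.324% of all genes tested were called higher in this comparison and 0.404% lower. The ARG2 effect was -0.48 in DLD1 and 0.93 in SW480, a difference of -1.41 ± 0.23 (adjusted p = 0.0168). The SMS effect was -0.13 in DLD1 and 0.65 in SW480, a difference of -0.78 ± 0.14 (adjusted p = 0.0231). These differences hold the DLD1 contrast on which AMD1 was selected, and the 10 genes were chosen with earlier results of these data known. Both calls passed in 10 of 10 other refits, among them the fit without DLD1 controls 2 and 3, where ARG2 was at -1.55 ± 0.24. On leaving out a single library, the ARG2 call was lost in 6 of 12 fits (without SW480 lactate 2, SW480 control 1 or 3, or DLD1 lactate 1, 2 or 3; adjusted p 0.0523 to 0.0687). The SMS call was lost in 8 of 12 (without any one of those 6 libraries, SW480 lactate 3 or DLD1 control 1; adjusted p 0.0515 to 0.0925), with differences between -0.92 and -0.72.

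SAT1 was higher with lactate in both lines, by 0.34 in DLD1 and 0.81 in SW480. The difference of -0.47 ± 0.15 did not pass (adjusted p = 0.141). It passed with DESeq2 (adjusted p = 0.0183), with the trend removed (adjusted p = 0.0148) and without DLD1 controls 2 and 3 (adjusted p = 0.0244). ODC1 had the same log2 effect of -0.34 in both lines, with a 95% interval of the difference of -0.31 to 0.32. For the difference of effects, 2957 of all 17572 genes tested had an unadjusted p under 0.05 (edgeR), and DESeq2 called 283 with a higher effect in DLD1. Of the 39 tested genes on the wider list, edgeR called 0 with a higher effect in DLD1 (3 at an unadjusted p under 0.05, and 1 by DESeq2) and 1 with a lower effect. That gene was MAT2A, which had 224, 237 and 255 CPM in DLD1 lactate, against 294, 368 and 272 CPM in DLD1 control. Its effect was -0.41 in DLD1 (-0.26 without DLD1 control 2) and 0.62 in SW480, a difference of -1.03 ± 0.18 (adjusted p = 0.0189), lost without SW480 lactate 2, SW480 control 1 or 3 or any one DLD1 lactate library (adjusted p 0.0578 to 0.0806). In DLD1 itself edgeR called 0 genes of the wider list in either direction, with 4 higher and 6 lower at an unadjusted p under 0.05, DESeq2 called 0 higher and 3 lower, and the median was -0.03. Over all 17572 genes tested in DLD1, 3253 had an unadjusted p under 0.05 (edgeR), and DESeq2 called 339 higher and 345 lower.

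The untreated lines differed for 8 of the 10 genes. In DLD1 control relative to SW480 control, 3 of the 10 genes were higher (ODC1, ARG2 and OAZ1) and 5 were lower (SMOX, SAT1, SMS, SRM and AZIN1), where 33.6% of all genes tested were called higher and 37.3% lower. A share of this size is close to that of genes in general. The control libraries did not overlap for 5 genes, 2 higher and 3 lower, against 70.6% of all genes tested.

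SMOX showed the widest gap: 10.7, 7.17 and 13.2 CPM in DLD1 control, against 256, 272 and 266 CPM in SW480 control. SMOX was 26.6-fold lower in DLD1 (log2 fold change -4.73 ± 0.20, adjusted p = 1.60e-11). The other catabolic enzyme, SAT1, was 1.82-fold lower in DLD1 (-0.86 ± 0.11, adjusted p = 3.34e-06), at 349.9 ± 27.3 CPM in DLD1 control and 608 ± 73.0 CPM in SW480 control. Of the synthesis enzymes, ODC1 was 1.41-fold higher in DLD1 control (0.49 ± 0.11, adjusted p = 0.00138), while SMS was 1.5-fold lower (-0.58 ± 0.10, adjusted p = 1.30e-04) and SRM 1.46-fold lower (-0.54 ± 0.18, adjusted p = 0.0127). SRM without DLD1 control 2 was at -0.33 and without DLD1 control 3 at -0.79. On CPM the SRM control libraries of the lines overlapped. On TMM-scaled counts the highest DLD1 control of SRM (59.2 CPM) was below the lowest SW480 control (62.8 CPM). AMD1, at 212 ± 47.1 CPM in DLD1 control and 179 ± 11.0 CPM in SW480 control, did not pass (0.19, 95% interval -0.07 to 0.44, adjusted p = 0.213). Its difference was -0.01 without DLD1 control 2 and was called at 0.31 without DLD1 control 3 (adjusted p = 0.0230) and at 0.28 with the trend removed (adjusted p = 3.57e-04).

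ARG2 was 1.76-fold higher in DLD1 control than in SW480 control (0.82 ± 0.17, adjusted p = 5.01e-04), the reverse of its order with lactate, where it averaged 12.1 ± 1.53 CPM in DLD1 and 16.9 ± 0.850 CPM in SW480. OAZ1 was higher by 0.38 ± 0.16 (adjusted p = 0.0474) and AZIN1 lower by 0.38 ± 0.15 (adjusted p = 0.0361), with overlapping libraries. Each of these calls was lost in 8 of the 12 fits that left out 1 library. With the trend removed both passed, OAZ1 at 0.49 ± 0.07 and AZIN1 at -0.29 ± 0.07. OAZ2 did not differ by a detectable amount (-0.02, 95% interval -0.21 to 0.18).

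Of the 39 tested genes on the wider list, 13 were higher and 13 lower in DLD1 control than in SW480 control, no larger a share than the 33.6% higher and 37.3% lower of all genes tested. The arginine and methionine branches held the widest gaps, and where a line had few reads the levels are given without a fold. CPS1 averaged 0.791 ± 0.194 CPM in DLD1 control and 1316 ± 58.2 CPM in SW480 control. MRI1, an isomerase of methionine salvage, averaged 0.248 ± 0.0991 CPM in DLD1 control and 35.2 ± 2.54 CPM in SW480 control. NOS2, the inducible nitric oxide synthase, averaged 3.27 ± 0.688 CPM in DLD1 control and had 0 reads in the SW480 controls, and NOS3, the endothelial synthase, averaged 0.317 ± 0.161 CPM in DLD1 control and 7.13 ± 0.381 CPM in SW480 control. SLC7A2, a cationic amino acid transporter, was 27.4-fold lower in DLD1 (36.7 ± 13.0 CPM in DLD1 control, 959.8 ± 55.2 CPM in SW480 control, adjusted p = 1.41e-11). MAT2A was 4.64-fold lower (adjusted p = 1.21e-09) and SAT2, the relative of SAT1, 2.40-fold lower (adjusted p = 8.90e-08). ASS1, which condenses citrulline with aspartate, was 3.60-fold higher in DLD1 (239.8 ± 54.1 CPM in DLD1 control, 63.6 ± 4.84 CPM in SW480 control, adjusted p = 1.15e-07). PAOX and OAZ3 were also called lower in DLD1 control, where both had few reads. On TMM-scaled counts, PAOX had 0.54, 0.26 and 1.06 CPM in DLD1 control, against 3.0, 2.2 and 2.0 CPM in SW480 control. OAZ3 had 0.88, 0.79 and 1.11 CPM in DLD1 control on the same scale, against 2.2, 2.0 and 2.0 CPM in SW480 control. AZIN2 was higher in DLD1 control (0.61, adjusted p = 0.0362) and EIF5A was not called (-0.05, 95% interval -0.31 to 0.21).

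**Figure D5:**
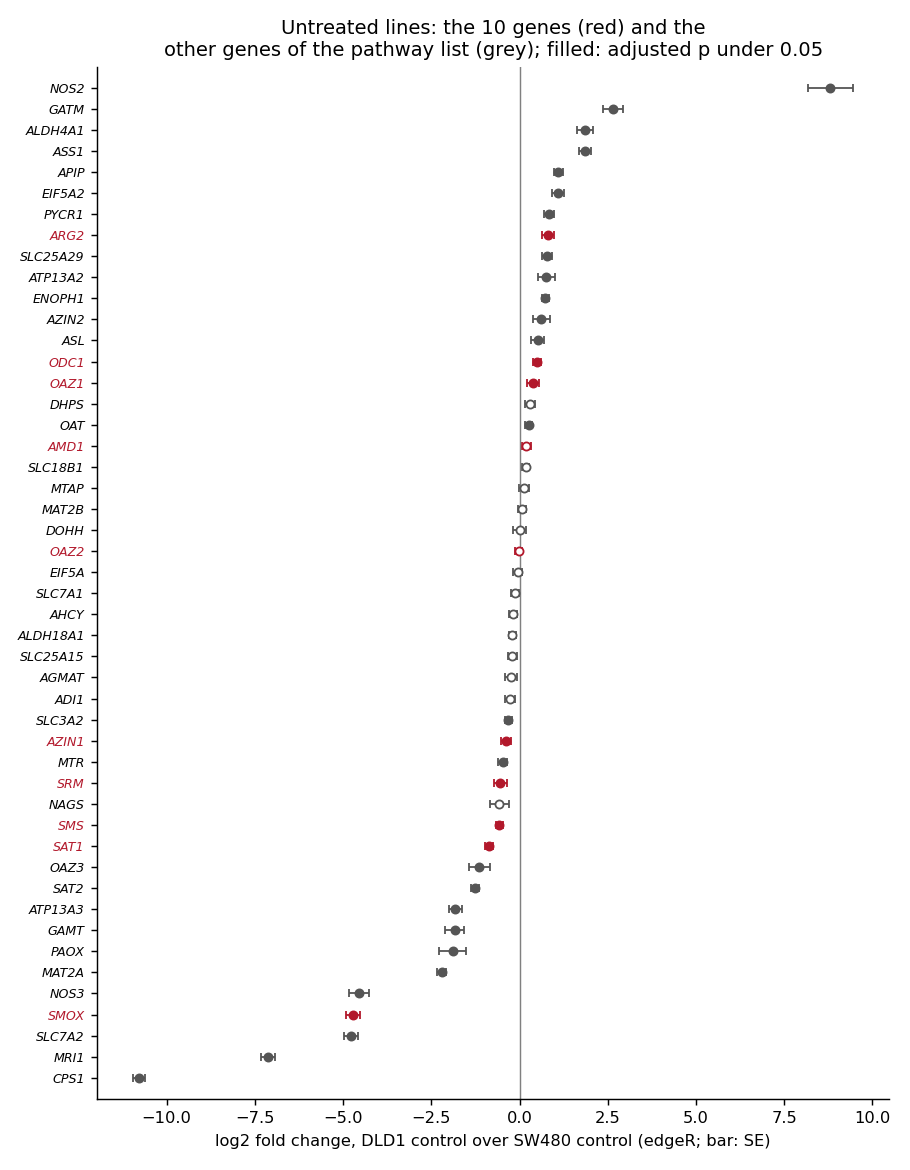
Log2 fold change of DLD1 control over SW480 control (x axis, with bars for 1 SE) for the 10 genes (red labels) and other tested genes of the wider list (grey points), ordered by value, with filled points for an adjusted p under 0.05. SMOX is the lowest of the 10 at -4.73, and the fitted values of CPS1, MRI1, NOS2, NOS3, PAOX and OAZ3, among others, rest on a line with few or no reads and are not bounds.

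The genes whose log2 CPM followed AMD1 most closely over the 12 libraries, after each line's mean was taken out, were LBR (Pearson's r = 0.981), FAM136A (0.980), HSPA9 (0.980), TXLNG (0.977) and HSPH1 (0.977), out of 11599 genes with a mean of at least 5 CPM. LBR encodes the lamin B receptor, HSPA9 a mitochondrial chaperone and HSPH1 a cytosolic co-chaperone. Among the other members, ODC1 had an r of 0.899, SRM 0.054, SMS -0.264 and SAT1 -0.788. With the GC and length trend removed, SRM moved to 0.973, ODC1 to 0.789, SMS to -0.641 and SAT1 to -0.934, and the closest 5 genes became HSPH1 (0.980), LBR (0.973), ILF2 (0.969), MLEC (0.967) and TXLNG (0.966). These coefficients are descriptions: the points share libraries, depth, treatment and, as deposited, the GC trends of the libraries.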

How the data were processed

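RNA-seq read counts per gene from 12 libraries were used as deposited. Per the submitters' processing notes the processing named HISAT2 and GRCh38; the counting tool, its annotation, strand setting and filters are not stated there. The labels give 3 biological replicates per line and treatment and do not say whether these were separate cultures, so p-values measure the spread between these libraries. The 10 genes and the wider list were chosen with earlier results of these data known.

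Counts were fitted in R 4.3.3 with edgeR 4.0.16 (TMM scaling, filter on low counts by group, robust quasi-likelihood test, two-sided) in 1 model of 4 group means, with Benjamini-Hochberg adjustment over 17572 genes and calls at an adjusted p under 0.05. SE is the absolute log2 fold change divided by the square root of the F statistic, and intervals are 1.96 SE on each side. The fit was tested on simulated data. Alternatives were limma-voom (limma 3.58.1), DESeq2 1.42.0, other scalings and filters, each line alone, a replicate block, omission of libraries, and removal of each library's trend along transcript GC content and length, fitted as splines on 87.7% of the tested genes, those with an annotated transcript. Named genes were all 10 members, up to 8 called genes of the wider list per comparison with the smallest p, 7 fixed relatives and the 5 genes most like AMD1; a few genes of the wider list with the trend removed were picked outside this rule, as said beside them. Of 54261 symbols, 45971 matched a current gene name and 1854 an older one. Counts of the 10 genes ran from 107 to 21314 per library, which limits precision most for SMOX in DLD1 and for ARG2. One item of the wider list enters the counts and is not reported here by itself.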

Additional observations from a re-analysis of the deposited data

Results flagged for a closer look

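The lactate effect differed between the lines, by a test of the difference itself, for 2 of the 10 genes and 1 gene of the wider list. ARG2 was lower with lactate in DLD1 and higher with lactate in SW480, a DLD1-minus-SW480 difference of -1.41 on the log2 scale. For SMS the difference was -0.78. For MAT2A it was -1.03. Each of these 3 differences holds the DLD1 contrast, and the libraries whose omission ends the calls are named with the results.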

How the results depend on the processing

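Of 1243 recomputed values for 53 gene results, 1074 kept their direction and side of the threshold, 93 lost the call, 34 gained one and 42 changed sign. The cause of the changes below was not tested. Calls over all genes tested changed with the fit as well. In SW480 they were 1201 higher and 982 lower in the main fit, and 1609 and 1244 with DESeq2. They were 2532 and 2251 with SW480 alone, and 2422 and 2590 with the trend removed. In DLD1 they were 59 and 8 in the main fit, 339 and 345 with DESeq2, and 325 and 256 with the trend removed. Without DLD1 control 3 they were 1881 and 1910 in DLD1. Of the 10 genes, 1 was called lower in SW480, against 2 with no filter, DESeq2 or the replicate block, 3 with SW480 alone, with the trend removed (with or without the replicate block) or without DLD1 controls 2 and 3, and 0 to 3 on omitting 1 library. In DLD1, 1 was called higher with DESeq2 or the trend removed (with or without the block) and 0 to 1 on omitting 1 library; 0 were called lower with DLD1 alone, 2 with the trend removed, 3 with the block as well, and 0 to 3 on omitting 1 library. For the difference of effects, 0 to 3 were called lower on omitting 1 library.

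Of the wider list in SW480, 5 were called higher with SW480 alone or without DLD1 controls 2 and 3, 4 with the trend removed (with or without the block) and 0 to 4 on omitting 1 library. Called lower were 1 with median-of-ratios scaling, 4 with DESeq2, 9 with SW480 alone, 12 with the trend removed (with or without the block) or without DLD1 controls 2 and 3, and 1 to 10 on omitting 1 library. In DLD1, 1 was called higher with no filter or without DLD1 controls 2 and 3 (0 to 6 on omitting 1 library), and called lower were 2 with no filter or the trend removed, 3 with DESeq2, 1 without DLD1 controls 2 and 3 and 0 to 9 on omitting 1 library. For the difference, 1 was called higher with no filter, DESeq2, the block, the trend removed (with or without the block) or without DLD1 controls 2 and 3 (0 to 3 on omitting 1 library), and called lower were 2 with no filter or without DLD1 controls 2 and 3, 5 with the trend removed, 4 with the block as well and 0 to 2 on omitting 1 library. Requiring as well a change of 1 or more on the log2 scale left 0 of the 10 in either direction in SW480, 0 in DLD1, 1 lower for the difference, 0 higher and 1 lower between the lines, and of the wider list 0 in either direction in SW480 and 6 higher between the lines.

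Sign changes were in values that were not called. With the trend removed, alone and with the replicate block, the SW480 effect of OAZ1 was 0.0067 and 0.0060, the DLD1 effect of OAZ2 -0.0073 and -0.011 and of AZIN1 0.068 and 0.076, the difference for AMD1 0.043 and 0.042, for ODC1 -0.055 and -0.052 and for AZIN1 0.0064 and 0.015, and the line difference of OAZ2 0.043 and 0.039. The ODC1 difference was -0.024 with median-of-ratios scaling and -0.023 with DESeq2, and the line difference of OAZ2 0.0086 with no filter. Without DLD1 controls 2 and 3, which leaves 1 DLD1 control assumed to vary like the other groups, OAZ1 was at -0.0057 and AZIN1 at 0.038 in DLD1 and OAZ2 at 0.035 between the lines. On omitting 1 library, effects ran from -0.0067 to 0.25 for SMOX and -0.10 to 0.0075 for OAZ1 in SW480, from -0.30 to 0.16 for SRM, -0.12 to 0.28 for OAZ1, -0.0030 to 0.14 for OAZ2 and -0.24 to 0.17 for AZIN1 in DLD1, from -0.11 to 0.11 for ODC1, -0.044 to 0.36 for OAZ1 and -0.32 to 0.0895 for AZIN1 in the difference, and from -0.0053 to 0.31 for AMD1 and -0.071 to 0.069 for OAZ2 between the lines.

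Whether replicate numbers pair the libraries is not known, and so few correlations cannot settle it. Deviations of same-numbered libraries correlated at 0.102, -0.000 and 0.173 in SW480 and -0.071, 0.062 and 0.116 in DLD1. Lactate 1 and 2 of each line correlated better with a control of another number, such as SW480 lactate 1 with control 2 (0.133). Lactate 3 of each line correlated best with its own number. With the replicate block AMD1 in SW480 was at -0.46 (adjusted p = 0.0221). Low counts limit SMOX in DLD1 and ARG2.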
